A study of Homo sapiens with 12 samples.

Results

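The 10 genes described here are the STAT transcription factors STAT3, STAT4, STAT5A, STAT5B and STAT6, the feedback inhibitors SOCS1, SOCS2, SOCS3 and CISH, and the kinase gene PIM1. They were picked by gene symbol from a table of 59251 genes measured by RNA-Seq in HL60 cells, a human myeloid leukemia line that lacks the PML-RARA fusion. The 12 libraries fall into 4 groups of 3: non-treated cells, cells exposed to all-trans retinoic acid (ATRA, 1 µM), cells exposed to palbociclib, an inhibitor of CDK4 and CDK6 (1 µM, abbreviated CDK4/6i), and cells that received the pair at the same doses (CDK4/6i+ATRA). Each treatment lasted 48 h. All groups are the same established line without a transgene, and the non-treated group is described only as such. The libraries of a group are labelled as biological replicates, and the p-values measure the spread between them.

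In the JAK-STAT pathway, a cytokine binds its receptor, the receptor's JAK kinases phosphorylate STAT proteins, and the STAT dimers enter the nucleus and bind DNA. Genes of the SOCS family, which includes CISH, are typical STAT targets, and their proteins bind receptors or JAK kinases and dampen the signal. PIM1 is another common STAT target and encodes a serine/threonine kinase that promotes survival and growth of blood cells. In myeloid cells, these genes respond to growth factors and interleukins, and retinoic acid drives maturation of the HL60 line.

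Total counts were between 12230923 and 18679544 per library and lowest in the CDK4/6i+ATRA group (12230923 to 14415276). Values are CPM, the share of a library's counts scaled by edgeR's trimmed mean of M-values (TMM), in which 3 counts correspond to 0.156 to 0.275 CPM. Calls were made at an adjusted p under 0.05 by edgeR's quasi-likelihood test over the 13318 genes left by its expression filter. All 10 genes passed the filter. STAT4 and SOCS3 did so on libraries with ATRA or CDK4/6i+ATRA, SOCS1 on those with ATRA or CDK4/6i, SOCS2 on the non-treated and CDK4/6i libraries, and CISH on those of all groups but CDK4/6i+ATRA. Myeloid markers fixed as a list of 7 genes included MPO, CD33, SPI1 and CEBPE, which were detected, and ELANE, PRTN3 and AZU1, which were listed at 0 in all libraries and are each placed on chromosome 19 and on an alternate contig in the table. Whether reads that fit both places were counted was not tested, so these zeros cannot be read as absent expression, and the sum of the list rests on the other 4 genes. The list summed to 6910 to 7228 CPM in the non-treated libraries, 1216 to 1267 CPM in those with ATRA, 4093 to 4214 CPM for CDK4/6i and 1238 to 1295 CPM for CDK4/6i+ATRA, and its part in the results was not tested. The largest part of this sum in non-treated and CDK4/6i cells was MPO, at 6517 CPM in non-treated cells, 293 CPM with ATRA, 3469 CPM with CDK4/6i and 28.0 CPM with the combination. The list did not move as a set, and between non-treated cells and the combination SPI1 went from 302 to 855 CPM, CEBPE from 170 to 285 CPM and CD33 from 93.9 to 99.8 CPM. Markers of erythroid, epithelial and fibroblast cells summed to at most 0.233 CPM in any library, and the 4 T cell markers to at most 3.12 CPM. The 3 B cell markers summed to 12.6 to 25.0 CPM with MS4A1 at 0. In bulk RNA, fewer cells that express a gene and less of its RNA per cell cannot be told apart.

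STAT dimers bind a palindrome of the form TTCNNNGAA, and the promoter of CISH holds several copies of it. RefSeq promoter windows of 300 bases, from 250 before to 50 after the start site, were found for 9 of the 10 genes (all but SOCS2). The 250 bases before the start site are printed here for CISH, which fell most clearly together with SOCS2, and for SOCS3 and PIM1, which rose. SOCS3 has 2 windows, of which the upstream one is printed. Each is written on the strand of its gene (build GRCh38.p14), with every match to TTCNNNGAA in capitals.
CISH (chr3:50611775-50612024, minus strand): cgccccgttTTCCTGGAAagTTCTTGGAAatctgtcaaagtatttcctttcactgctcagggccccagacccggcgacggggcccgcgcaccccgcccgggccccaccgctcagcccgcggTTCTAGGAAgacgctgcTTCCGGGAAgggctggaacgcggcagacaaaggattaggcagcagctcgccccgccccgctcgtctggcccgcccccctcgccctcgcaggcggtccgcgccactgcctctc
SOCS3 (chr17:78360926-78361175, minus strand): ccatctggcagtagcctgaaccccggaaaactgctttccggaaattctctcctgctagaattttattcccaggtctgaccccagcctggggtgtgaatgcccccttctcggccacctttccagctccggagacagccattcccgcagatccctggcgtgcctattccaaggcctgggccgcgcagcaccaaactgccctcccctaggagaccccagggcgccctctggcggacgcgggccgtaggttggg
PIM1 (chr6:37169902-37170151, plus strand): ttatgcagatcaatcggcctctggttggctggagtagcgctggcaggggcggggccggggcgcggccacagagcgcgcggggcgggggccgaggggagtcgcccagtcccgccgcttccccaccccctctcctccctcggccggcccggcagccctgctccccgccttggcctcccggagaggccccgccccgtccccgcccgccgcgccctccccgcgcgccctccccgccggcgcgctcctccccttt
The CISH window held 4 matches, TTCCTGGAA at position -241, TTCTTGGAA at -230, TTCTAGGAA at -129 and TTCCGGGAA at -112, each counted from the start site to the first base of the match. At least 1 match was present in 7.66% of the 35116 windows of this length, which include several windows for some genes, and at least 4 matches in 7 of them. Both SOCS3 windows and the PIM1 window held no match, and neither did those of STAT3, STAT4, STAT5A, STAT5B, STAT6 and SOCS1. The form with a spacer of 4 instead of 3 bases between TTC and GAA, known as the one that STAT6 prefers, was present in 6.44% of windows. Among the 9 genes it was found once, in 1 of the 3 STAT5A windows, as TTCCTCTGAA at position -229. Both forms read the same on either strand, and a match is only a description of the letters in these windows.

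The STAT factors were considered first. STAT3, STAT6 and STAT5A rose with ATRA and with CDK4/6i and were highest with CDK4/6i+ATRA, whereas STAT5B stayed within a narrow range and STAT4 was close to the detection floor without ATRA. STAT3 (chr17:42313324-42388442, minus strand) mediates signals of the interleukin-6 and G-CSF receptors. Its levels were 89.7, 91.7 and 91.6 CPM in the non-treated libraries, 135, 142 and 136 CPM with ATRA, 114, 119 and 112 CPM with CDK4/6i, and 190, 184 and 184 CPM with CDK4/6i+ATRA. No library of any group overlapped those of another group. On the log2 scale, STAT3 rose by 0.60 ± 0.04 (SE) with ATRA, 0.34 ± 0.04 with CDK4/6i and 1.03 ± 0.04 with the combination, with adjusted p of 2.50e-18, 6.50e-10 and 5.63e-28 in edgeR's quasi-likelihood test.

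STAT6 (chr12:57095408-57111362, minus strand) mediates interleukin-4 and interleukin-13 signals and had the largest called rise with CDK4/6i of the 10 genes. Its levels were 60.0, 59.6 and 57.3 CPM in non-treated cells, 80.2, 85.1 and 88.6 CPM with ATRA, 114, 120 and 121 CPM with CDK4/6i, and 184, 175 and 173 CPM with CDK4/6i+ATRA. The 4 groups did not overlap here either, and the order of the single drugs was the opposite of that of STAT3: STAT6 was higher with CDK4/6i than with ATRA by 0.48 ± 0.04 (SE, log2), and STAT3 was lower by 0.26 ± 0.04 (SE). STAT6 rose by 0.52 ± 0.05 with ATRA, 1.00 ± 0.05 with CDK4/6i and 1.59 ± 0.05 with the combination (log2 ± SE; adjusted p of 6.24e-14, 1.17e-24 and 6.21e-34). STAT6 shares 69 exon bases with NAB2 on the other strand, which has fewer counts (6639 against 19610 over all libraries) and had means of 7.53, 28.4, 7.84 and 128 CPM in the non-treated, ATRA, CDK4/6i and CDK4/6i+ATRA groups. Whether strand was used in counting is not given in the sources used here, and reads from these bases cannot be assigned between the genes.

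STAT5A and STAT5B encode closely related factors downstream of GM-CSF, interleukin-3 and erythropoietin receptors. They lie head to head, next to STAT3, and the 3 genes span 189266 bases of chromosome 17 (STAT5B, chr17:42199177-42288370, minus strand, and STAT5A, chr17:42287547-42311943, plus strand), and the end of STAT5A lies 1380 bases from STAT3. STAT5A had 3.73, 5.27 and 4.39 CPM in non-treated cells, 5.49, 5.66 and 7.40 CPM with ATRA, 6.64, 6.36 and 5.50 CPM with CDK4/6i, and 9.53, 8.56 and 7.35 CPM with CDK4/6i+ATRA. The non-treated libraries lay below all others, the single-drug groups overlapped, and the lowest CDK4/6i+ATRA library lay just below the highest ATRA library. The log2 fold changes of STAT5A were 0.48 ± 0.16 (SE) with ATRA, 0.47 ± 0.16 with CDK4/6i and 0.92 ± 0.16 with the combination (adjusted p of 0.00847, 0.0114 and 1.81e-06). Without the first non-treated library, the adjusted p of the single-drug rises was 0.0685 and 0.0848, without the third ATRA library it was 0.114 for ATRA, and without the first CDK4/6i library 0.0568 for CDK4/6i.

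STAT5B was at 100, 96.9 and 98.3 CPM in non-treated cells, 85.4, 90.8 and 87.0 CPM with ATRA, 106, 106 and 104 CPM with CDK4/6i, and 101, 94.2 and 94.4 CPM with CDK4/6i+ATRA. The ATRA libraries were the lowest and the CDK4/6i libraries the highest, and the CDK4/6i+ATRA libraries overlapped those of non-treated cells. With ATRA, STAT5B fell by 0.17 ± 0.04 (SE) on the log2 scale (adjusted p = 0.000707). The difference was 0.10 ± 0.04 with CDK4/6i, with an adjusted p of 0.0492 that was over 0.05 in DESeq2 (0.0532) and under most other alternatives, and -0.03 ± 0.05 with CDK4/6i+ATRA (adjusted p = 0.580). Scaled by library size alone in place of TMM, STAT5B was called lower with CDK4/6i+ATRA (-0.29, adjusted p = 9.85e-07). It was also called lower there without an expression filter (-0.14, adjusted p = 0.0260). Per kilobase of exon, STAT5A made up 11.04% ± 1.86 (SD, n = 3) of the sum of both genes in the non-treated group, 16.2% ± 2.40 after ATRA, 13.8% ± 1.06 after CDK4/6i and 19.3% ± 1.53 in the combination. This share differed between the 4 groups by more than the spread between libraries (exact permutation test over all 369600 regroupings, p = 0.00221). The genes share 315 exon bases on opposite strands, so part of the share depends on how reads from these bases were assigned. Its size also depends on the listed exon lengths, 4773 bases for STAT5A and 13082 for STAT5B. Without division by length, the same permutation test gave p = 0.00312.

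STAT4 (chr2:191029576-191246175, minus strand) mediates interleukin-12 signals and was scarcely expressed. Its raw counts were 1, 0 and 3 in non-treated cells, 11, 9 and 24 with ATRA, 0, 0 and 2 with CDK4/6i, and 8, 3 and 9 with CDK4/6i+ATRA. The libraries with ATRA, alone or in the combination, lay above those without it in normalized CPM. Over the summed counts of a group, the level with ATRA was 10.8 times that of non-treated cells (95% exact interval 3.92 to 41.2, counting error only), and with CDK4/6i+ATRA 7.35 times (2.46 to 29.6). The fitted log2 fold changes were 3.30 ± 0.70 (SE) and 2.76 ± 0.80 (adjusted p of 4.55e-05 and 0.00158), and without the third non-treated library, which held 3 of the group's 4 counts, they were 4.47 and 3.92. Between CDK4/6i and non-treated cells the ratio was 0.477 (95% exact interval 0.0432 to 3.33), which leaves a difference undetectable at this depth.

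**Figure D1:**
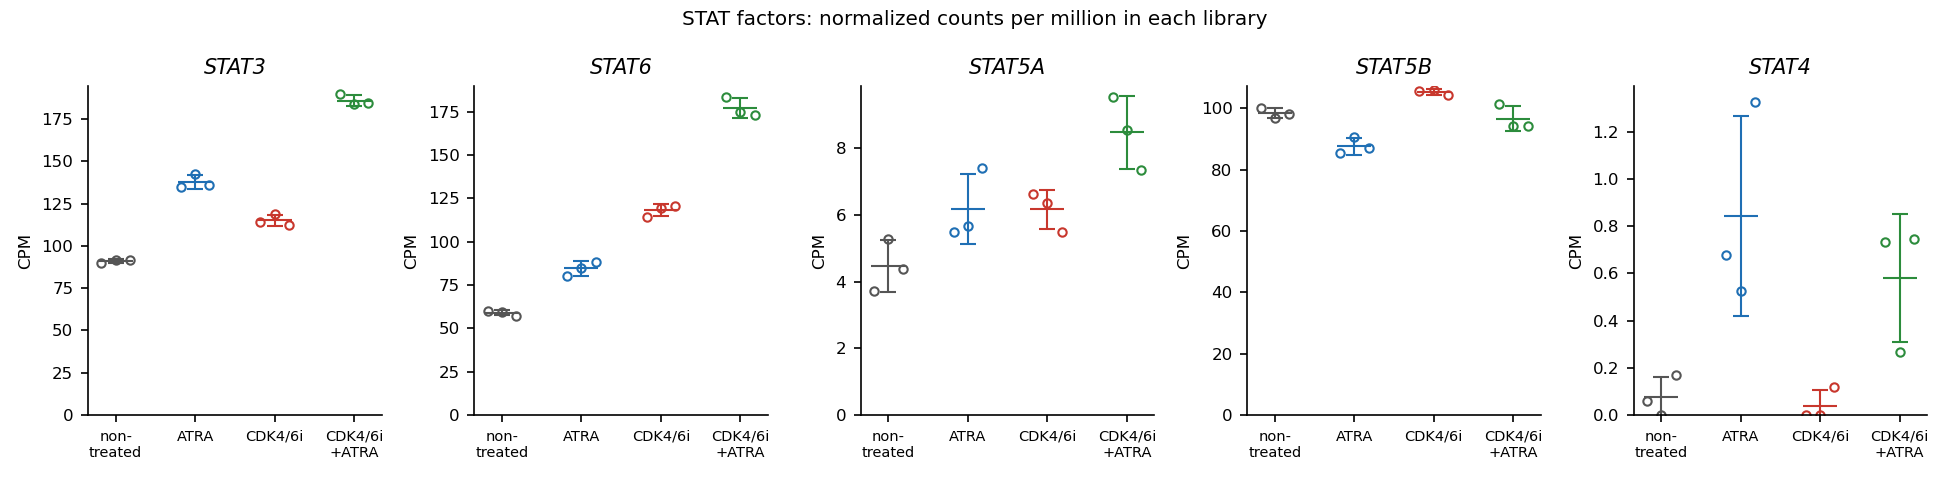
Levels of the 5 STAT genes in each library (vertical axes, TMM-normalized CPM from 0, each gene on its own scale) for the 4 groups on the horizontal axis, with open circles for libraries, and the mean and SD (n = 3) as a dash with error bars. STAT3 and STAT6 separate all groups and are highest with CDK4/6i+ATRA, STAT5B stays between 85.4 and 106 CPM, and STAT4 does not exceed 1.33 CPM.

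Per kilobase of the exon length listed for each gene, STAT3 was the highest of the 5 in every group. That length is 4941 bases for STAT3 and 13082 for STAT5B. Before division by length, STAT5B was above STAT3 in non-treated cells (98.5 and 91.0 CPM). The order of genes thus depends on the listed lengths, and which transcripts were expressed was not tested. In non-treated cells, STAT3 was at 18.4 ± 0.232 CPM per kilobase (SD, n = 3), ahead of STAT6 at 11.2 ± 0.273, STAT5B at 7.53 ± 0.129 and STAT5A at 0.935 ± 0.162. With CDK4/6i+ATRA, STAT3 was at 37.6 ± 0.654 CPM per kilobase, STAT6 at 33.5 ± 1.07, STAT5B at 7.39 ± 0.317 and STAT5A at 1.78 ± 0.229. The order of these 4 genes was the same in both groups. With CDK4/6i alone, STAT3 (23.3 ± 0.662) and STAT6 (22.4 ± 0.649) were neighbours whose libraries overlapped.

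The 4 inhibitors of the SOCS family did not move together. CISH and SOCS2 fell with ATRA and fell further with CDK4/6i+ATRA, SOCS3 rose in both, and SOCS1 rose with ATRA alone. None of the 4 was called with CDK4/6i alone by edgeR (56.2% of all tested genes were), by DESeq2 or at an unadjusted p under 0.05. CISH (chr3:50606489-50611774, minus strand), whose protein binds cytokine receptors and is a well-known STAT5 target, had raw counts of 120, 82 and 89 in non-treated cells, 26, 29 and 43 with ATRA, 92, 90 and 95 with CDK4/6i, and 5, 1 and 5 with CDK4/6i+ATRA. These correspond to 7.21, 5.14 and 5.01 CPM, 1.60, 1.69 and 2.38 CPM, 4.77, 5.50 and 5.56 CPM, and 0.458, 0.0891 and 0.413 CPM. The non-treated and CDK4/6i libraries overlapped, the ATRA libraries lay below both, and the CDK4/6i+ATRA libraries lay below all others.

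CISH fell by 1.60 ± 0.21 (SE) on the log2 scale with ATRA and by 4.14 ± 0.34 with CDK4/6i+ATRA (adjusted p of 3.58e-09 and 1.10e-15), and the latter is 0.0556 times the non-treated level over summed counts (95% exact interval 0.0275 to 0.101, counting error only). With CDK4/6i alone, the ratio was 0.909 (95% exact interval 0.768 to 1.07; adjusted p = 0.540). The gene shares 107 exon bases with MAPKAPK3 on the other strand, which has 47937 counts against 677 for CISH over all libraries. The mean level of MAPKAPK3 was 243, 236, 244 and 312 CPM in the non-treated, ATRA, CDK4/6i and CDK4/6i+ATRA groups, and as for STAT6 and NAB2, reads from the shared bases cannot be assigned between the genes.

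SOCS2 (chr12:93569969-93626236, plus strand) encodes the inhibitor of growth hormone signaling and, like CISH, is a known STAT5 target. Its raw counts were 54, 50 and 53 in non-treated cells, 8, 7 and 7 with ATRA, 71, 56 and 55 with CDK4/6i, and 0, 2 and 0 with CDK4/6i+ATRA. In normalized CPM these are 3.25, 3.14 and 2.98, then 0.493, 0.408 and 0.387, then 3.68, 3.42 and 3.22, and finally 0, 0.178 and 0. As for CISH, the non-treated and CDK4/6i libraries overlapped and lay above those with ATRA, which in turn lay above those with CDK4/6i+ATRA.

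SOCS2 fell by 2.84 ± 0.32 (SE, log2) with ATRA (adjusted p = 7.34e-11). With CDK4/6i+ATRA, the 2 counts of the group against 157 in non-treated cells gave a ratio of 0.0187 (95% exact interval 0.00225 to 0.0688), and the fitted log2 fold change was -5.56 ± 0.54 (adjusted p = 3.12e-13). That fitted value rests on the second CDK4/6i+ATRA library, which held both counts, and was -8.66 without it. With CDK4/6i alone, the ratio to non-treated cells was 1.11 (95% exact interval 0.889 to 1.38; adjusted p = 0.617).

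SOCS3 (chr17:78356778-78360925, minus strand) encodes the main inhibitor of the gp130 and G-CSF receptors, which signal through STAT3. Its raw counts were 0, 3 and 2 in non-treated cells, 31, 32 and 56 with ATRA, 2, 5 and 5 with CDK4/6i, and 85, 71 and 72 with CDK4/6i+ATRA, which are 0 to 0.188 CPM, 1.87 to 3.09 CPM, 0.104 to 0.306 CPM and 5.95 to 7.79 CPM. The ATRA libraries lay above those without ATRA, and the CDK4/6i+ATRA libraries above all others. Against the 5 counts of the non-treated group, the ratio was 23.3 with ATRA (95% exact interval 9.70 to 73.0) and 67.1 with CDK4/6i+ATRA (28.3 to 209). The fitted rises were 4.43 ± 0.49 and 5.96 ± 0.42 (log2 ± SE; adjusted p of 2.69e-11 and 4.55e-18), and SOCS3 exceeded its ATRA level in the combination by 1.53 ± 0.24 (adjusted p = 2.49e-07). Leaving out 1 non-treated library moved these rises to between 3.88 and 5.12 with ATRA and between 5.41 and 6.65 with the combination, the lowest without the first library and the highest without the second. With CDK4/6i the ratio to non-treated cells was 2.29 (0.751 to 8.30; adjusted p = 0.224).

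SOCS1 (chr16:11254417-11256204, minus strand) encodes a direct inhibitor of JAK kinases and is known as a target of interferon signals. Its raw counts were 3, 8 and 8 in non-treated cells, 51, 26 and 32 with ATRA, 13, 2 and 6 with CDK4/6i, and 4, 5 and 8 with CDK4/6i+ATRA. Only the ATRA libraries, at 1.52 to 3.14 CPM, stood apart, and the other 9 libraries overlapped between 0.122 and 0.674 CPM. SOCS1 rose by 2.47 ± 0.43 (SE, log2) with ATRA (adjusted p = 1.62e-06) and its level in the combination was below that with ATRA (log2 difference -2.09 ± 0.45, adjusted p = 5.53e-05). The difference between CDK4/6i+ATRA and non-treated cells was 0.39 ± 0.59 (adjusted p = 0.549), with a 95% exact interval of the ratio from 0.643 to 2.67.

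PIM1 (chr6:37170152-37175428, plus strand), the survival kinase gene, rose with ATRA, fell with CDK4/6i and was highest with both drugs. It was at 4.99, 4.89 and 5.24 CPM in non-treated cells, 51.8, 47.1 and 50.1 CPM with ATRA, 0.778, 0.611 and 0.527 CPM with CDK4/6i, and 106, 105 and 106 CPM with CDK4/6i+ATRA. No libraries of different groups overlapped. PIM1 rose by 3.30 ± 0.08 (SE, log2) with ATRA, fell by 2.95 ± 0.20 with CDK4/6i and rose by 4.39 ± 0.08 with the combination (adjusted p of 9.52e-36, 6.22e-18 and 7.14e-43). Cells treated with CDK4/6i+ATRA thus held 7.34 ± 0.11 more on the log2 scale than those treated with CDK4/6i (adjusted p = 9.46e-46).

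The other PIM kinase genes behaved differently. PIM2 had mean levels of 29.2, 7.65, 41.5 and 12.5 CPM in the non-treated, ATRA, CDK4/6i and CDK4/6i+ATRA groups, and was lower with ATRA, by -1.93 ± 0.10 (SE, log2), and higher with CDK4/6i, by 0.51 ± 0.08, both called. The count table also lists PIM2 on a second contig. PIM3 was at 86.8, 84.1 and 86.6 CPM in the first 3 groups and at 334 CPM with CDK4/6i+ATRA, a called rise of 1.95 ± 0.04 over non-treated cells. Of the summed PIM1, PIM2 and PIM3 levels per kilobase, PIM1 made up 3.72% ± 0.227 (SD, n = 3) in the non-treated group, 30.5% ± 1.13 after ATRA, 0.460% ± 0.0928 after CDK4/6i and 19.4% ± 0.176 in the combination. The share differed between groups (exact permutation test, p = 6.49e-05, the smallest that the 369600 regroupings gave). The share was smaller in the combination than after ATRA although PIM1 itself was higher, and PIM3 was at 159 CPM per kilobase with CDK4/6i+ATRA and 40.0 with ATRA.

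**Figure D2:**
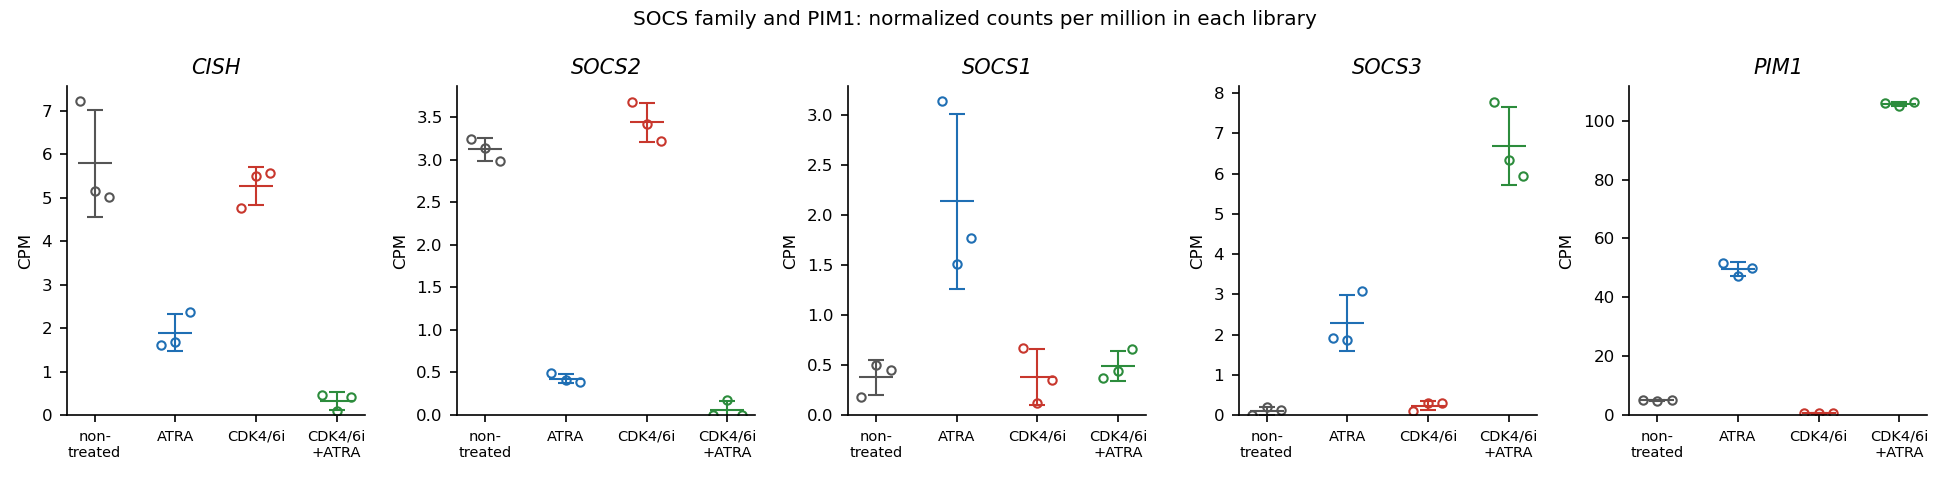
Levels of CISH, SOCS2, SOCS1, SOCS3 and PIM1 in each library (vertical axes, TMM-normalized CPM from 0, each gene on its own scale) for the 4 groups, with open circles for libraries, and the mean and SD (n = 3) as a dash with error bars. CISH and SOCS2 are lowest and SOCS3 and PIM1 highest with CDK4/6i+ATRA, where PIM1 is at 105 to 106 CPM, and SOCS1 stands out only with ATRA.

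**Figure D3:**
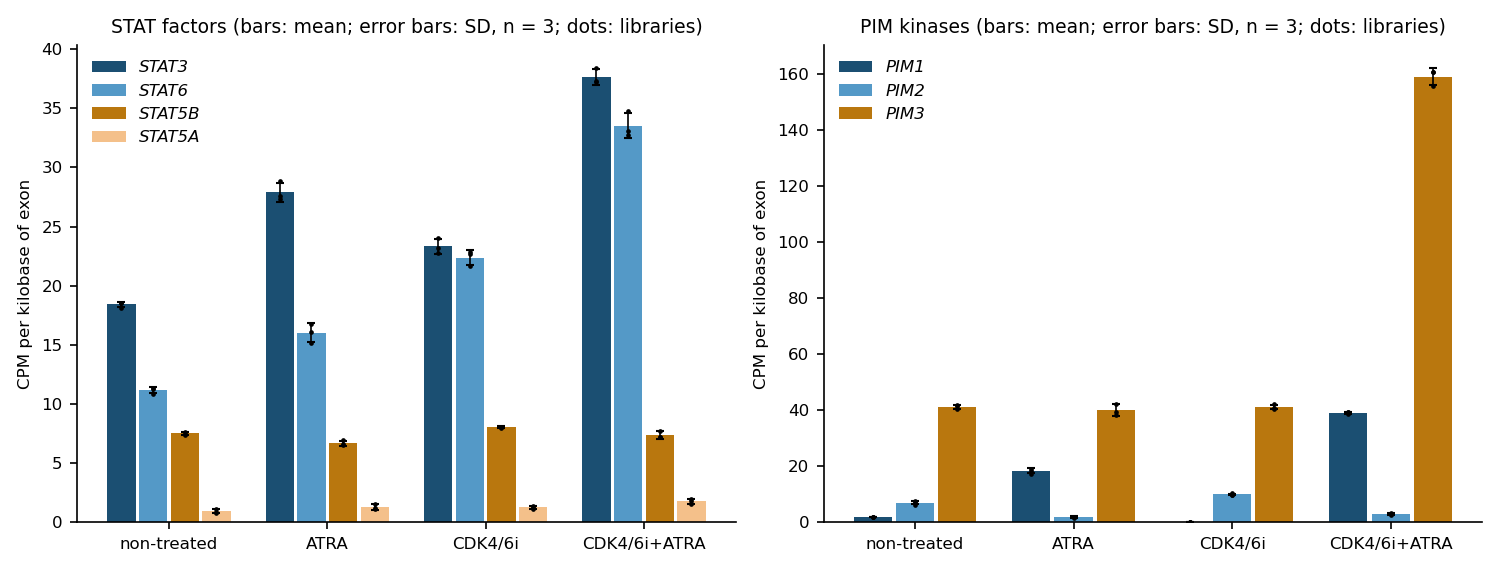
Levels per kilobase of exon (vertical axes, TMM-normalized CPM per kilobase, from 0) of 4 STAT genes (left) and of the 3 PIM kinase genes (right) in the 4 groups, with bars for the mean, error bars for the SD (n = 3) and dots for libraries. STAT3 and STAT6 rise to 37.6 and 33.5 CPM per kilobase with CDK4/6i+ATRA, and PIM3 exceeds PIM1 in every group.

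Counted over the 10 genes, 7 rose and 3 fell with ATRA, where 67.6% of all tested genes were called (32.1% higher and 35.5% lower). With CDK4/6i, 4 rose (STAT3, STAT5A, STAT5B and STAT6), PIM1 fell and 5 were not called, against 56.2% called of all genes (28.3% higher and 27.9% lower). Between the combination and non-treated cells, 6 rose (STAT3, STAT4, STAT5A, STAT6, SOCS3 and PIM1), CISH and SOCS2 fell, and STAT5B and SOCS1 were not called, against 81.7% of all genes (41.0% higher and 40.7% lower). With changes this widespread, the counts of called members do not by themselves set the 10 genes apart. The median log2 fold change of the 10 genes was 0.56, 0.12 and 0.98 in these 3 comparisons, and that of all tested genes -0.03, 0.02 and 0.02. These comparisons share the non-treated libraries.

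Against either drug alone, the combination differed for 9 of the 10 genes. Relative to ATRA, 6 were higher and 3 lower (CISH, SOCS1 and SOCS2), with STAT4 not called, where 69.8% of all genes were called (36.9% higher and 32.8% lower). Relative to CDK4/6i, 6 were higher and 3 lower (CISH, SOCS2 and STAT5B), with SOCS1 not called, where 78.6% were called (39.1% higher and 39.5% lower). The STAT5A and STAT5B calls were the least stable of these: without the first CDK4/6i+ATRA library the adjusted p against ATRA was 0.0649 for STAT5A and 0.0642 for STAT5B, and that of STAT5A against CDK4/6i was 0.0530. Without the first ATRA library, that of STAT5A against ATRA was 0.0557. Without a filter, the adjusted p against ATRA was 0.0568 for STAT5A and 0.604 for STAT5B. With only the groups compared, STAT5B in the combination differed from ATRA by 0.071 (adjusted p = 0.175). With counts thinned to the smallest library, the adjusted p of STAT5A against ATRA was 0.0506. In the same thinned fit, STAT5B differed from CDK4/6i by -0.077 (adjusted p = 0.133). Between the single drugs, 4 genes were higher with CDK4/6i (CISH, SOCS2, STAT5B and STAT6) and 5 lower, with STAT5A not called, where 70.8% were called (35.6% higher and 35.2% lower). The libraries of the compared groups did not overlap for 10 of the 10 genes between ATRA and non-treated cells (70.3% of all tested genes), 5 between CDK4/6i and non-treated cells (60.7%) and 8 between CDK4/6i+ATRA and non-treated cells (81.8%). They did not overlap for 9 between the single drugs (73.2%), 8 between the combination and ATRA (71.9%) and 9 between the combination and CDK4/6i (78.9%). The CDK4/6i+ATRA libraries lay outside the range of all other libraries for 6 of the 10 genes (STAT3, STAT6, SOCS2, SOCS3, CISH and PIM1), as they did for 54.0% of all tested genes.

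The scale bears on the small differences. The 10 most abundant genes held 9.98% to 11.1% of the counts in the CDK4/6i+ATRA libraries and 6.34% to 8.28% in the others. When library size alone was used in place of TMM, the median of all genes was at -0.25 between CDK4/6i+ATRA and non-treated cells, -0.26 against ATRA and -0.28 against CDK4/6i. The share of called genes that were higher was then 40.49%, 31.55% and 36.73%, compared with 50.17%, 52.95% and 49.77% with TMM. Among the members, the STAT5A differences between CDK4/6i+ATRA and either drug were then 0.14 and 0.18 with adjusted p of 0.433 and 0.308, and STAT5B differed between CDK4/6i+ATRA and ATRA by -0.17, where with TMM the difference was 0.14. STAT3, STAT6, SOCS3 and PIM1 remained higher and CISH and SOCS2 lower in CDK4/6i+ATRA than in non-treated cells.

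The interaction was the amount by which the combined effect exceeded the added effects of the single drugs in log2 units. It was called for 4 of the 10 genes, 1 above and 3 below the sum, where 51.4% of all tested genes were called (24.5% above and 27.0% below). For PIM1, the single-drug effects summed to 0.34 and the combination gave 4.39, an interaction of 4.04 ± 0.20 (SE; adjusted p = 8.60e-23). For CISH, the sum was -1.74 and the combination -4.14 (interaction -2.40 ± 0.47, adjusted p = 2.10e-05), and for SOCS2 the sum was -2.70 and the combination -5.56 (interaction -2.86 ± 0.85, adjusted p = 0.00422). Both fell further than the sum, but the SOCS2 value rests on 2 counts in the CDK4/6i+ATRA group, and without the second library, which held both, the interaction was -5.96. For SOCS1, the sum of 2.54 exceeded the 0.39 of the combination (interaction -2.15 ± 0.74, adjusted p = 0.0129), although without the first CDK4/6i library the interaction was -1.44 with an adjusted p of 0.190.

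For the 5 STAT genes and SOCS3, no interaction was called. The estimates for the abundant STAT genes were precise, with 0.09 ± 0.06 (SE) for STAT3, 0.06 ± 0.06 for STAT6 and 0.04 ± 0.06 for STAT5B, whereas those for STAT5A (-0.02 ± 0.22), SOCS3 (0.40 ± 1.07) and STAT4 (0.39 ± 1.16) allow larger departures. With library size alone, the interactions of STAT3, STAT5B and STAT6 were called at -0.23, -0.28 and -0.26, where the median of all genes was at -0.34.

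**Figure D4:**
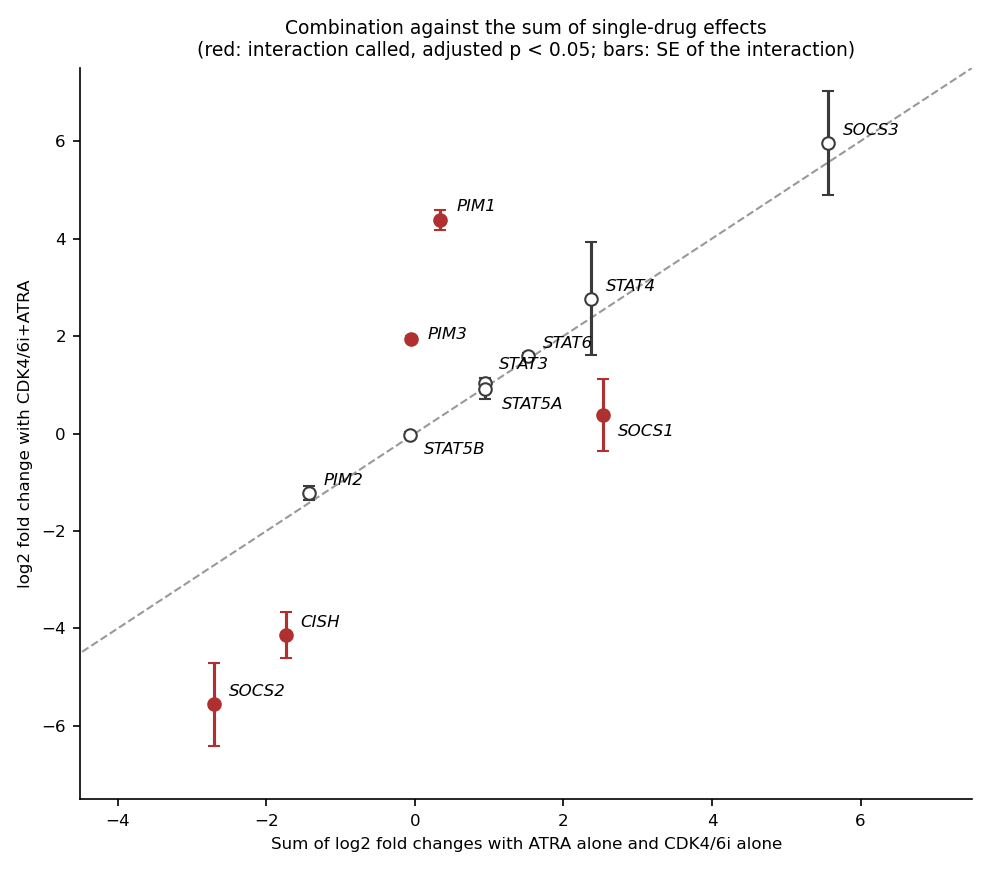
Log2 fold change against non-treated cells with CDK4/6i+ATRA (vertical axis) and the added log2 fold changes of ATRA alone and CDK4/6i alone (horizontal axis) for the 10 genes, PIM2 and PIM3, with a dashed line of equality and bars for the SE of the interaction. The genes with a called interaction are drawn in red, with PIM1 and PIM3 above the line (4.04 and 2.00) and CISH, SOCS2 and SOCS1 below it.

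In their profile over the 4 groups, the members most alike were STAT3 and STAT5A, measured as the root mean square difference of the log2 fold changes against non-treated cells in the 3 treated groups (0.12). Outside the STAT genes, SOCS2 and CISH were closest at 1.10 and SOCS2 and SOCS3 farthest apart at 7.89, but the SOCS2 profile rests on the 2 counts of 1 CDK4/6i+ATRA library, without which its change in that group was -8.66 in place of -5.56, so the place of these pairs in the order is not firm. These values describe 3 comparisons with the same controls.

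The rest of the pathway was described from lists of its components. Of the JAK kinases, which phosphorylate the STATs, JAK1, JAK2 and TYK2 rose in all 3 treated groups, and JAK3 had 1 count in all libraries and was not tested. JAK2 went from 15.1 CPM in non-treated cells to 69.3 CPM with ATRA, 18.7 CPM with CDK4/6i and 84.7 CPM with the combination, a rise of 2.49 ± 0.07 (SE, log2) in the latter. With CDK4/6i+ATRA, JAK1 rose by 1.20 ± 0.04 and TYK2 by 1.61 ± 0.04. STAT2, a factor of interferon signaling, rose in all 3 comparisons and was 1.63 ± 0.10 higher with CDK4/6i+ATRA than in non-treated cells.

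Among the other SOCS genes, SOCS4 and SOCS6 rose with CDK4/6i+ATRA by 0.92 ± 0.07 and 1.18 ± 0.27 (log2 ± SE). SOCS5 (0.16 ± 0.08) and SOCS7 (-0.33 ± 0.14) were called too, but their adjusted p reached 0.218 and 0.101 when 1 library was left out, and with library size alone SOCS5 was at -0.10. The count table also lists SOCS7 on a second contig. With CDK4/6i alone, where edgeR called 56.2% of all tested genes, none of these 4 was called by edgeR or DESeq2 on the full counts, and none had an unadjusted p under 0.05. With counts thinned to the smallest library, edgeR called SOCS7 higher with CDK4/6i (0.34, adjusted p = 0.0423). SOCS4 was at 30.3 CPM and SOCS5 at 29.3 CPM in non-treated cells, and their levels per kilobase in that group (4.36 and 5.93 CPM) were above that of CISH (2.65 CPM), the highest of the SOCS members.

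Of 12 further brakes on the pathway (phosphatases, PIAS proteins and adaptors), all were tested and 9 rose and 3 fell with CDK4/6i+ATRA, where 81.7% of all tested genes were called. The largest rises were those of PTPRC, the receptor phosphatase CD45 (123 to 789 CPM, 2.68 ± 0.04), SH2B3, an adaptor that restrains JAK2 (37.1 to 170 CPM, 2.19 ± 0.06), and CBL, a ubiquitin ligase for activated receptors (135 to 609 CPM, 2.18 ± 0.04). The falls were those of the phosphatase genes PTPN2 (-0.70 ± 0.05) and PTPN11 (-0.42 ± 0.04), of which the latter also transmits growth signals, and of PIAS2 (-0.47 ± 0.08). The table also lists PTPRC on a second contig.

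Of 22 ligand genes, 3 passed the expression filter. LIF, a gp130 ligand that signals through STAT3, had summed counts of 5 in non-treated cells, 532 after ATRA, 3 after CDK4/6i and 5426 in the combination, with group means of 0.101, 10.4, 0.0611 and 159 CPM. LIFR, the gene of its receptor, was listed at 0 in all libraries. OSM, another gp130 ligand, rose from 2.89 to 8.71 CPM with CDK4/6i+ATRA (1.59 ± 0.19, SE, log2). The third, IL10, had 56 counts after ATRA alone, 1 after CDK4/6i alone and 2 in each of the remaining groups. It was called higher with ATRA than in non-treated cells (adjusted p = 3.99e-07) and lower in the combination than with ATRA (8.59e-06), and was not called between the combination and non-treated cells.

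Of 28 receptor genes, 20 were tested, and 16 rose and 2 fell with CDK4/6i+ATRA, beside 41.0% higher and 40.7% lower among all tested genes. Among the 8 not tested, CSF2RA and IL3RA were listed at 0 in all libraries and are placed on both X and Y in the table, so that their zeros cannot be read as absent expression either. LIFR, placed once, was at 0 as well, and OSMR, the oncostatin M receptor gene, had 18 counts over all libraries. IL2RA, the interleukin-2 receptor alpha chain, had no count in the non-treated and CDK4/6i libraries, 121 counts with ATRA and 333 with CDK4/6i+ATRA, which is at least 39.4-fold and 163-fold higher than non-treated cells against a floor of 3 counts over the group. IL10RA rose from 3.04 to 19.6 CPM and IFNGR2 from 4.97 to 30.3 CPM (2.69 ± 0.14 and 2.60 ± 0.11). EPOR, the erythropoietin receptor and a classical activator of STAT5, was at 9.99 CPM in non-treated cells, 11.7 CPM with ATRA, 8.42 CPM with CDK4/6i and 2.63 CPM with the combination. In the combination, EPOR fell by 1.92 ± 0.17 (SE, log2), and it was not called with either drug alone. IFNGR2 is also listed on a second contig.

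Of 13 other STAT targets, 11 were tested, and 10 rose and 1 fell with CDK4/6i+ATRA, against the same shares of all genes. OSM is in this list as well as among the ligands. BCL6, a transcriptional repressor, rose from 1.40 to 184 CPM (7.02 ± 0.11), FOS from 1.61 to 131 CPM (6.34 ± 0.10), and BCL3, a partner of NF-kappaB, from 2.04 to 127 CPM (5.95 ± 0.10). CCND2, the cyclin D2 gene, was at 271 CPM in non-treated cells, 106 CPM with ATRA, 371 CPM with CDK4/6i and 69.3 CPM with the combination. In the combination, CCND2 fell by 1.96 ± 0.05 (SE, log2). Thus, as among the members, the list held genes that moved in opposite directions. The median log2 fold change of the tested genes was 1.61 for the JAK kinases, 0.74 for the brakes, 1.31 for the receptors and 2.72 for the targets, beside 0.02 for all tested genes.

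**Figure D5:**
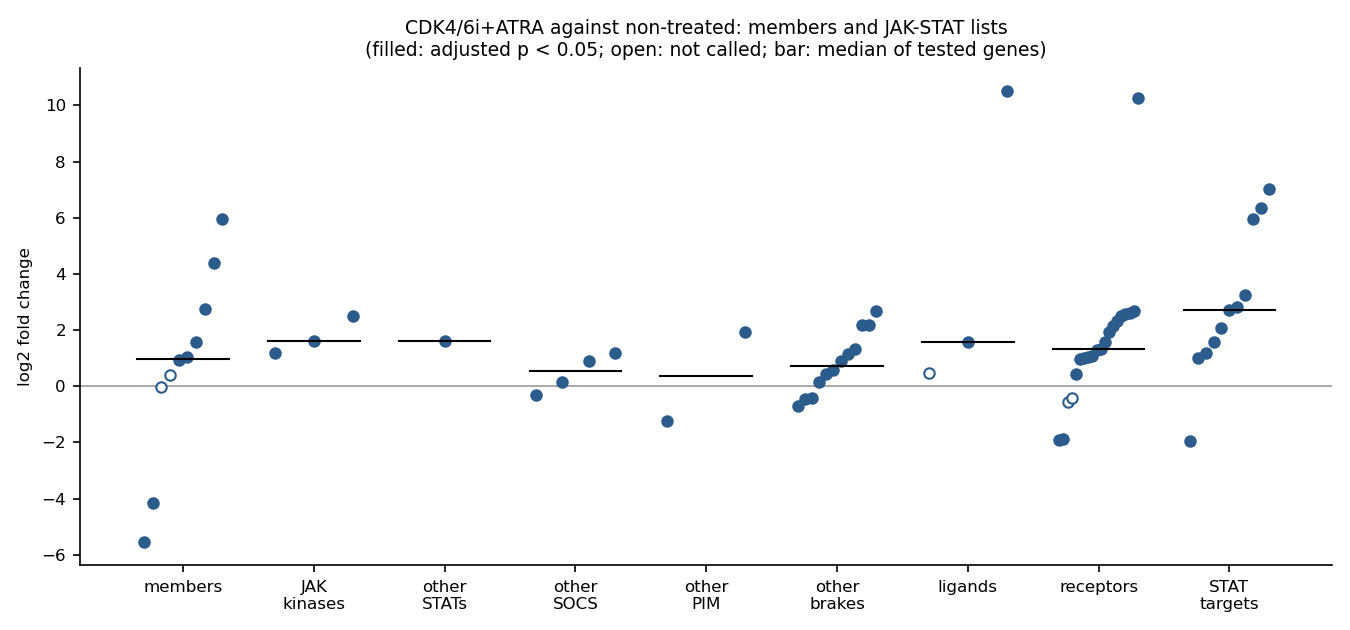
Log2 fold changes of the combination over non-treated cells (vertical axis) of the tested genes among the 10 members and 8 pathway lists (horizontal axis), with filled circles for genes called at an adjusted p under 0.05, open circles for others and a bar at each median. The value above 10 among the receptors is IL2RA, whose fitted change depends on the prior count since its non-treated libraries held no count. CISH and SOCS2 are the lowest points of all lists.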

How the data were processed

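RNA-Seq of HL60 cells gave 12 libraries in 4 groups of 3. Per the labels, the authors trimmed reads with Trimmomatic 0.33 and aligned them with STAR 2.7.11a to hg38, and the paper names RSEM for the counts with the RefSeq annotation, whereas the deposited table has the layout of featureCounts. The deposited counts are whole numbers per gene without normalization. The library kit was directional, and the paper's text does not give whether counting used strand. Members and lists were chosen with earlier results of these data known. The genes named beside the members were the JAK kinases, other STAT, SOCS and PIM genes of the lists, of which 1 is not reported here, and up to 3 largest called rises and falls with CDK4/6i+ATRA of each further list at a mean of at least 1 CPM. IL10 and JAK3 were named for completeness of their lists.

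Counts were filtered with filterByExpr, normalized with TMM and fitted as 4 groups in edgeR 4.0.16 (R 4.3.3) with the quasi-likelihood F test, Benjamini-Hochberg adjustment over 13318 genes and a threshold of 0.05. Each SE is the absolute log2 fold change divided by the square root of F. Shares were compared with an exact permutation test of the variance between group means. Ratios of summed counts carry exact 95% binomial intervals, which cover counting error only, as do floors of 3 counts. The scripts were tested on simulated data. Alternatives were DESeq2 1.42.0, other size factors, other filters, a replicate block, only the groups compared, thinned counts and leaving out each library. Promoter windows came from RefSeq (GRCh38.p14). Analyses used python 3.11.15 with numpy 2.4.6, pandas 2.3.3, scipy 1.17.1 and matplotlib 3.10.9.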

Additional observations from a re-analysis of the deposited data

Results flagged for a closer look

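The effect of ATRA differed between cells with and without CDK4/6i, by the interaction term of edgeR's quasi-likelihood test, for 4 of the 10 members (51.4% of all tested genes). The interaction was 4.04 for PIM1 on the log2 scale, -2.40 for CISH, -2.86 for SOCS2 and -2.15 for SOCS1. Among the other kinase, STAT, SOCS and PIM genes, the same test called it for JAK1 (0.25), TYK2 (0.38), SOCS4 (0.48), SOCS6 (1.25) and PIM3 (2.00). It was not called for JAK2 (-0.02), STAT2 (-0.22), SOCS5 (0.18), SOCS7 (-0.10) and PIM2 (0.20). With library size alone, which moved the median interaction of all genes to -0.34, those of JAK1, TYK2 and SOCS4 were -0.069, 0.058 and 0.16 and were not called. Those of JAK2 (-0.33, adjusted p = 0.00560) and STAT2 (-0.53, adjusted p = 0.00257) were then called below the sum. That of STAT2 was also called without the first CDK4/6i+ATRA library (-0.33, adjusted p = 0.0492). Without a filter, the JAK1 interaction was 0.16 and not called (adjusted p = 0.0688).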

How the results depend on the processing

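Of 1330 member values under alternatives, 1273 kept their direction and their side of the threshold, and 24 changed sign. Among those that kept their sign, 31 lost the call and 2 gained it, both for STAT5B with CDK4/6i+ATRA. Values that changed sign and also crossed the threshold are counted only among the 24. With library size alone, 7 members had a called interaction (55.8% of all genes, of which 18.49% were above the sum), and STAT5B for CDK4/6i+ATRA against ATRA (-0.17) and the interactions of STAT3 (-0.23), STAT5B (-0.28) and STAT6 (-0.26) changed sign. At least 10 counts in every library left only 4 members to test (STAT3, STAT5A, STAT5B and STAT6), of which 4 were called with ATRA (73.7% of all genes tested), 3 between the combination and non-treated cells (86.5%), 4 between it and ATRA (77.0%), 4 between it and CDK4/6i (83.7%), 3 for CDK4/6i against ATRA (77.7%) and 0 for the interaction (60.8%), and STAT5B with CDK4/6i+ATRA was at 0.0053. Without a filter, STAT5A for CDK4/6i against ATRA was at 0.00039, and the interactions of STAT5B and STAT6 were at -0.043 and -0.025. With thinned counts, SOCS1 with CDK4/6i was at -0.11, and its interaction of -1.92 had an adjusted p of 0.0539.

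Leaving out each library in turn gave 3 to 5 members called with CDK4/6i (51.1% to 55.8% of all genes), with 3 without the first non-treated or the first CDK4/6i library, 7 to 9 between the combination and ATRA (65.0% to 68.9%) and 8 to 9 between it and CDK4/6i (74.6% to 77.9%). The values that changed sign in these fits had not been called. With CDK4/6i against non-treated cells, SOCS1 ranged from -0.65 to 0.45, CISH from -0.23 to 0.053 and STAT4 from -3.45 to 0.25. STAT5A for CDK4/6i against ATRA ranged from -0.083 to 0.15, and SOCS1 for CDK4/6i+ATRA against CDK4/6i from -0.077 to 1.03. The interaction ranged from -0.16 to 0.12 for STAT5A, -0.31 to 0.93 for SOCS3 and -0.79 to 2.91 for STAT4. Of 1108 values of the other pathway genes named, 1061 kept their direction and their side of the threshold, and 19 changed sign. Among those that kept their sign, 24 lost the call and 4 gained it. With library size alone, SOCS5 with CDK4/6i+ATRA was at -0.10, PIM3 with CDK4/6i at 0.0088, and the interactions of JAK1, SOCS5 and PIM2 were at -0.069, -0.14 and -0.12. PIM3 with CDK4/6i was at 0.0035 with DESeq2 and with its size factors in edgeR, PIM3 with ATRA at 0.0038 with only the groups compared, and the JAK2 interaction at 0.048 with thinned counts. With a library left out, SOCS6 ranged from -0.27 to 0.052 with ATRA and from -0.13 to 0.26 with CDK4/6i, SOCS4 from -0.10 to 0.026 and PIM3 from -0.020 to 0.0047 with CDK4/6i, and the JAK2 interaction from -0.061 to 0.035. The causes were not tested.

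Libraries with the same number were not paired by any source, and their 18 correlations of deviations lay between -0.0702 and 0.0328. With the replicate number as a block, 10, 4 and 8 members were called with ATRA, CDK4/6i and CDK4/6i+ATRA (66.9%, 55.5% and 81.3% of all genes), with STAT5B lost with CDK4/6i (0.097, adjusted p = 0.0638), and 4 for the interaction (50.9%). At this depth, SOCS2 and CISH with CDK4/6i+ATRA, STAT4 and SOCS3 without ATRA, and SOCS1 in all groups but ATRA had libraries at or near the floor of 3 counts.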
